A study of Mus musculus with 4 samples.

Results

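Snhg1, Snhg5, Snhg6, Snhg8, Snhg12 and Gas5, 6 small nucleolar RNA (snoRNA) host genes, were read out in single-cell transcriptomes of mouse long bone. The members were 6 of the 53703 gene rows of the count matrices, found by their symbols, each of which matched 1 row. They were chosen by their Lats2iECKO and control values per cell class in these same libraries, so the genotype values below are a description and carry no test.

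The 4 libraries came from mouse femur and tibia, metaphyseal region, at postnatal week 12, after depletion of lineage-positive, CD45+ and CD117+ blood cells. In the 2 Lats2iECKO libraries, floxed Lats2, which encodes a kinase of the Hippo pathway, was deleted by the tamoxifen-inducible Cdh5-driven CreERT2 transgene, so only endothelial cells (ECs) were targeted. The 2 control libraries came from littermates without Cre. The study's methods give tamoxifen to both groups, mutants and controls, on a C57BL/6 background, while the labels list the controls as untreated. Whether a library holds 1 animal or several is not given in the sources used here, so the spread between the libraries of a group may be partly technical.

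Small nucleolar RNAs guide the chemical modification of ribosomal RNA: box C/D snoRNAs direct ribose methylation and box H/ACA snoRNAs direct pseudouridylation. In mammals most of them are cut out of the introns of host genes, many of which encode ribosomal proteins or translation factors. The spliced RNA of a noncoding host is usually short-lived, since translation of its short open reading frames brings on nonsense-mediated decay, and many hosts start with a terminal oligopyrimidine (TOP) tract, as ribosomal protein genes do. Gas5 takes its name from growth arrest, during which its RNA accumulates in cultured cells.

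In the GENCODE M39 annotation of GRCm39, Snhg1 (ENSMUSG00000108414) lies at chr19:8700319-8703812 on the + strand, with 10 exons in its canonical transcript and 8 snoRNA genes inside. Snhg5 (ENSMUSG00000097195) spans chr9:88377321-88405615 on the - strand, with 6 exons and 2 snoRNA genes. Snhg6 (ENSMUSG00000098234) is at chr1:9926809-10014504 on the - strand, with 5 exons and 1 snoRNA gene. Snhg8 (ENSMUSG00000104960) is at chr3:123301192-123302578 on the - strand, with 3 exons and 1 snoRNA gene. For Snhg12 (ENSMUSG00000086290), at chr4:132035905-132038762 on the + strand, the canonical transcript is a single exon that contains its 5 snoRNA entries. Gas5 (ENSMUSG00000053332) lies at chr1:160861793-160866118 on the + strand, with 11 exons and 10 snoRNA entries. Every snoRNA gene inside the hosts other than Snhg12 lies in an intron of the canonical transcript. Snhg1 overlaps Slc3a2 on the other strand, Snhg5 overlaps Gm67903, Snhg6 overlaps Sgk3 and Mcmdc2, and Gas5 overlaps Zbtb37. The authors counted the sense strand, exons and introns together, so intronic host reads are part of every value.

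One snoRNA from each of 3 hosts shows what the introns carry, with the C and D boxes (TGATGA and CTGA) or the ACA box in capitals. The box C/D snoRNAs Snord47 of Gas5 (chr1:160865652-160865728, + strand, intron 9) and Snord50a of Snhg5 (chr9:88403582-88403653, - strand, intron 4) hold both boxes, and Snora24 of Snhg8 (chr3:123301586-123301715, - strand, intron 1) ends in the ACA box of the H/ACA class. The sequences are those of GRCm39.
Snord47: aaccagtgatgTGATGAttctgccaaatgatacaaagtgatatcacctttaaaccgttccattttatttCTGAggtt
Snord50a: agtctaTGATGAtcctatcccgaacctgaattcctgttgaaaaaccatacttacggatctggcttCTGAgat
Snora24: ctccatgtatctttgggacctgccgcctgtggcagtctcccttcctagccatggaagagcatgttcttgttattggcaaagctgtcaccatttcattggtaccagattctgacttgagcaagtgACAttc
The snoRNAs themselves were all but unseen. The 25 snoRNA rows inside the 6 hosts held 22.5 unique molecular identifiers (UMIs) in the kept barcodes, against 229192 for the hosts. The kit primes on poly(A) tails, which mature snoRNAs lack, so the values below are those of the host RNA.

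The start regions of 5 entries in the RefSeq promoter table (build GRCm38.p6) are shown because they share letters that the choice of members did not use. Each run holds 50 bases before and 50 bases from the annotated start on the gene's strand. Capitals mark TATA, searched from 40 to 15 bases before the start, and a pyrimidine run of a C followed by at least 4 C or T, searched to begin within 10 bases of the start.
Snhg1, chr19:8723437-8723536, + strand: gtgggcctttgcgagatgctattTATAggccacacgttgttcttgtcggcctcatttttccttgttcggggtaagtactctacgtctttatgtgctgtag
Snhg5, chr9:88522848-88522947, - strand: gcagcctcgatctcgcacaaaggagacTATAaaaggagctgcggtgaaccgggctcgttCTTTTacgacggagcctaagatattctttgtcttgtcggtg
Snhg8, chr3:123508287-123508386, - strand: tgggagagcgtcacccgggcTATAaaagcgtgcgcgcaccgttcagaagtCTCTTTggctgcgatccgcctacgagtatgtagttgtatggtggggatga
Snhg12, chr4:132308628-132308727, + strand: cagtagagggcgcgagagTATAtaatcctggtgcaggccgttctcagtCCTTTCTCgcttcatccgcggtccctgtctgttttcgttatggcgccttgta
Gas5, chr1:161035116-161035215, + strand: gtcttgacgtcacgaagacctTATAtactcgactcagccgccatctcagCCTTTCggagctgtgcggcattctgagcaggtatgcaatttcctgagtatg
All 5 held TATA, between 32 and 23 bases before the start. TATA, which reads the same on both strands, was found in this window in 5.91% of the 32851 promoters of the table. The pyrimidine run was present in Snhg5 (5 bases), Snhg8 (6 bases), Snhg12 (8 bases) and Gas5 (6 bases), and not within 10 bases of the start of Snhg1. Of all promoters listed, 29.7% held such a run on the gene's strand and 33.8% on the other strand, while 1.82% held both features. Among 72 promoters of cytosolic ribosomal protein genes, 56.9% held the run and 8.33% held TATA. A second RefSeq entry of Gas5, with its start upstream of the one shown (chr1:161034551-161034650), held neither. Matching letters are a description of these windows and not a factor's site.

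Libraries held between 69636600 and 85899079 UMIs, and 24599 barcodes with at least 1000 UMIs and at least 800 genes passed the filters (5119, 5887, 6813 and 6780 in Lats2iECKO replicates 1 and 2 and control replicates 1 and 2). Barcodes were assigned to classes by marker scores, and 18594 fell into 6 stromal classes: EC-like, bone marrow stromal cell (BMSC)-like, osteoblast (OB)-like, chondrocyte (CHO)-like, smooth muscle cell (SMC)-like and fibroblast-like. Barcodes without a class made up 22.5% and 23.5% of the Lats2iECKO libraries and 9.07% and 9.85% of the controls. Among the kept barcodes, 66 occurred in more than 1 library. The label check held in EC-like cells: the Cre-ERT2 transgene stood at 53.8 and 49.1 CPM (UMI counts scaled to a common total for the class in each library) in the Lats2iECKO libraries and at 0.647 and 0.842 CPM in the controls. Lats2 was at 92.2 and 97.1 against 133 and 123 CPM there, a log2 fold change of -0.36 ± 0.074 (SE, 2 libraries against 2, adjusted p = 0.000467 by edgeR's quasi-likelihood test); the counts cover the whole gene and not the deleted part alone.

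In EC-like cells, the class in which the Cre driver is active, each of the 6 host genes stood higher in both Lats2iECKO libraries than in both controls. The class held 531, 669, 845 and 829 barcodes in Lats2iECKO replicates 1 and 2 and control replicates 1 and 2. Snhg6, the host of Snord87, measured 35.3 and 36.9 CPM in the Lats2iECKO libraries against 20.1 and 22.2 CPM in the controls, a log2 fold change of 0.85 ± 0.12 (SE, 2 libraries against 2, as for all fold changes below, where 1 stands for a 2-fold level). Snhg5, which carries the Snord50 genes, measured 31.2 and 26.5 against 16.8 and 18.01 CPM, a log2 fold change of 0.80 ± 0.15. Both libraries of either genotype lay close together beside the distance between the genotypes for these 2 genes. Snhg12, a host that has been studied in the endothelium of the vessel wall, stood at 40.04 and 40.04 against 28.97 and 29.8 CPM, a log2 fold change of 0.52 ± 0.11. With every cell counted equally it was 0.330. That setting, here and below, scales each cell to its own total and uses no further scaling between libraries. Snhg8 reached 86.1 and 85.8 against 64.7 and 62.5 CPM (0.51 ± 0.074 on the log2 scale). Gas5 gave 272 and 279 against 202 and 213 CPM, with a log2 fold change of 0.48 ± 0.067. For these 3 hosts the gap between the genotypes was again wider than the gap within them. The smallest difference was that of Snhg1, the host with 8 snoRNA genes, at 59.7 and 64.7 against 56.3 and 53.9 CPM and a log2 fold change of 0.25 ± 0.084.

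The median log2 fold change of the 6 hosts in EC-like cells was 0.51, beside 0.008 over the 5900 genes tested. Snhg5 lay below the expression filter, so its fold change comes from the fit without that filter, as for every host below the filter in the other classes. By edgeR with Benjamini-Hochberg adjustment at 0.05, the 5 hosts that passed the filter were called higher, as were 31% of the genes tested, while 31.1% were called lower. DESeq2 called 4 hosts, and edgeR on library totals alone called 4. With no gene filter, or with at least 2000 UMIs and at most 10% mitochondrial UMIs, edgeR called 6. Both Lats2iECKO libraries exceeded both controls for all 6 hosts and for 34.7% of the genes tested. Since this contrast chose the members, nothing is read from these counts, in this class or in those below. Median depth per EC-like barcode was 6814 and 6574 UMIs in the Lats2iECKO libraries and 5680 and 5306 UMIs in the controls, and the median share of mitochondrial UMIs was 5.38% and 5.57% against 4.67% and 4.58%. The part of these differences in the result was not tested.

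**Figure D1:**
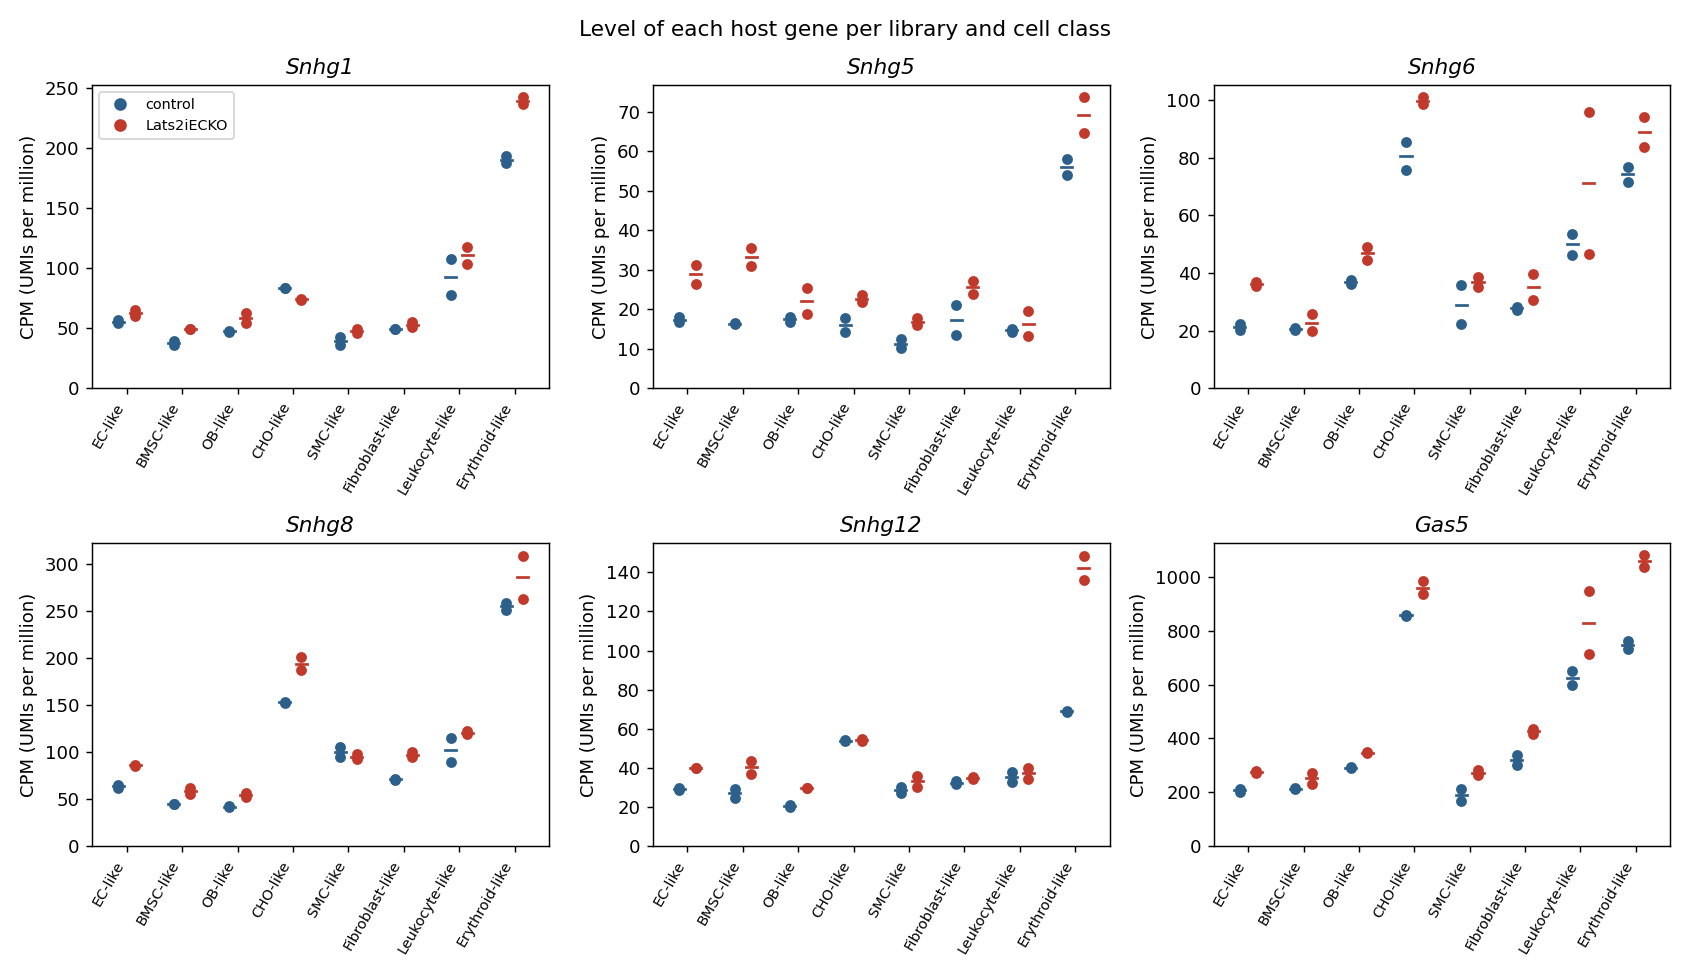
Level of each host gene in CPM (linear axis from 0) by cell class; each point is 1 library, blue for control and red for Lats2iECKO, and the short lines are group means. In EC-like cells the red points lie above the blue ones in all 6 panels, for Gas5 at 272 and 279 against 202 and 213 CPM, whereas for Snhg1 in CHO-like cells they lie below, at 73.4 and 74.2 against 83.7 and 83.6 CPM.

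Within the EC-like cells, arterial-like, sinusoidal-like and metaphyseal-like cells were separated by their markers (651, 609 and 622 barcodes). Lats2 was lower in arterial-like (-0.49 ± 0.13, adjusted p = 0.013 by edgeR) and metaphyseal-like ECs (-0.37 ± 0.14, adjusted p = 0.041), and in sinusoidal-like ECs it stood at 88.9 and 108 CPM in the Lats2iECKO libraries against 108 and 101 CPM in the controls (0.017 ± 0.17, adjusted p = 0.957). The widest difference was that of Snhg5 in arterial-like ECs, at 41.2 and 43.8 CPM in the Lats2iECKO libraries against 7.04 and 18.8 CPM in the controls, a log2 fold change of 1.83 ± 0.33. The first control value rests on 8.5 UMIs, and the log2 fold change was 1.23 without control replicate 1 and 2.73 without control replicate 2. Snhg12 was at 54.96 and 39.7 against 20.7 and 25.97 CPM in arterial-like ECs, a log2 fold change of 1.05 ± 0.25, and with every cell counted equally it was 0.623, while that of Snhg1 was 0.447 in place of 0.696. Gas5 overlapped there, with 200.2 and 212 against 166 and 203 CPM. Metaphyseal-like ECs, gated by Ramp3, Aplnr, Gpihbp1 and Apln and led by Apln, Chga, Angpt2 and Esm1, of which Apln, Angpt2 and Esm1 are also known from endothelial tip cells, showed their largest difference in Snhg6, at 45.6 and 45.5 against 23.1 and 25.9 CPM, a log2 fold change of 0.96 ± 0.21. Sinusoidal-like ECs numbered 61 and 61 in the Lats2iECKO libraries and 248 and 239 in the controls. Snhg8 had the largest estimate in them, at 87.98 and 114 against 71.2 and 66.9 CPM (0.65 ± 0.17 on the log2 scale). Snhg5 was close, at 0.62 ± 0.20, and without Lats2iECKO replicate 2 Snhg8 was at 0.435 and Snhg5 at 0.745. Snhg1 and Snhg12 overlapped between the genotypes there. The host with the largest estimate thus differed between the 3 vessel classes, but in sinusoidal-like ECs it changed with the libraries used. These differences between classes were not tested. Medians over the 6 hosts were 0.59 in arterial-like, 0.45 in sinusoidal-like and 0.38 in metaphyseal-like ECs. Of the hosts that passed the filter, 4 of 5 in arterial-like, 2 of 4 in sinusoidal-like and 3 of 6 in metaphyseal-like ECs were called higher, beside 12%, 9.43% and 19.8% of all genes tested there. The sinusoidal-like calls fell to 0 when any 1 library was left out, and the arterial-like calls to 1 without control replicate 1 and to 2 without control replicate 2. DESeq2 called 0 hosts in arterial-like, 0 in sinusoidal-like and 1 in metaphyseal-like ECs.

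BMSC-like cells, the reticular stroma marked by Cxcl12 and Lepr, are not targeted by the Cre driver. Snhg5 showed their widest difference, at 35.5 and 30.9 CPM in the Lats2iECKO libraries against 16.1 and 16.5 CPM in the controls, a log2 fold change of 0.98 ± 0.12. Snhg12 was at 43.7 and 36.9 against 24.9 and 29.1 CPM and Snhg8 at 55.3 and 62.1 against 44.5 and 45.2 CPM. Both were higher in the 2 Lats2iECKO libraries, as were Snhg1 (0.43 ± 0.10 on the log2 scale) and Gas5 (0.28 ± 0.070), which was 0.148 without Lats2iECKO replicate 2, 0.392 without Lats2iECKO replicate 1 and 0.142 without the 5% of barcodes with most UMIs. Snhg6 overlapped, at 25.6 and 19.9 against 20.3 and 20.9 CPM, and its log2 fold change of 0.090 ± 0.14 changed sign under 2 of 17 alternative settings. Snhg5, Snhg6 and Snhg12 lay below the expression filter here, so their fold changes come from the fit without that filter. The median of the 6 hosts was 0.43, and 0.357 with all 6 taken from the fit without the filter. Hosts called higher numbered 3 of the 3 that passed the filter, beside 19.9% of genes called higher and 18.2% called lower, and 5 hosts had no overlap with higher Lats2iECKO values, beside 29.8% of genes. The summed level of the 8 CHO markers in BMSC-like cells was 965 and 588 CPM in the Lats2iECKO libraries against 363 and 373 CPM in the controls. That of the 7 OB markers was 337 and 398 against 657.5 and 651 CPM. No marker of these lists was at 0, and their part in the host values was not tested.

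OB-like cells numbered 158 and 186 in the Lats2iECKO libraries and 809 and 832 in the controls, so their mutant values rest on fewer UMIs, and median depth was 9732.5 and 12376.5 UMIs against 14943 and 15877.5 UMIs. Snhg12 stood at 29.98 and 29.7 against 20.2 and 21.1 CPM, a log2 fold change of 0.54 ± 0.13. Gas5 stood at 347 and 349 against 295 and 289 CPM (0.27 ± 0.060 on the log2 scale). The other 4 hosts were between 0.30 and 0.38 on that scale, Snhg5 with 0.103 without Lats2iECKO replicate 1 and 0.557 without Lats2iECKO replicate 2, and all 6 were higher in both Lats2iECKO libraries, beside 25.6% of the genes tested. The median was 0.34. Snhg6, Snhg8, Snhg12 and Gas5 were called higher, 4 of 6, beside 7.29% of genes called higher and 3.68% called lower. None of the 4 calls was kept when control replicate 1 or control replicate 2 was left out (0 hosts called by edgeR in either fit), and DESeq2 called 1. Hosts called were also 0 with no gene filter and 0 with free RNA subtracted, where Snhg8 was at 0.226. Neat1 (0.71 ± 0.061, adjusted p = 1.31e-05 by edgeR) and Malat1 (0.27 ± 0.065, adjusted p = 0.0208), nuclear RNAs read as signs of RNA quality, were higher in the same Lats2iECKO libraries, and their part in the host values was not tested.

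CHO-like cells were the deepest class, with 1541, 1592, 1171 and 1178 barcodes and between 17779079 and 22945970 UMIs per library. Gas5 was at 935 and 984 CPM in the Lats2iECKO libraries against 859.8 and 853 CPM in the controls, a log2 fold change of 0.26 ± 0.046. Snhg8 was at 188 and 201 against 153 and 154 CPM (0.44 ± 0.049), and Snhg6 at 98.6 and 101 against 85.7 and 75.6 CPM (0.41 ± 0.056). Snhg5 had the widest difference, at 21.8 and 23.6 against 17.8 and 14.3 CPM, with a log2 fold change of 0.60 ± 0.095. These 4 were higher in both Lats2iECKO libraries. With every cell counted equally the log2 fold change was 0.097 for Gas5 and 0.270 for Snhg8. Snhg12 overlapped between the genotypes, at 54.02 and 54.8 against 54.2 and 53.8 CPM. Snhg1 was the one host with lower values, at 73.4 and 74.2 against 83.7 and 83.6 CPM. Its log2 fold change of -0.081 ± 0.046 was smaller than the CPM ratio, because fold changes also use the trimmed mean of M values (TMM) scaling, which moved the median of all genes by 0.099 relative to library totals alone. On totals alone Snhg1 was called lower in CHO-like cells. The median of the 6 hosts was 0.34. Called higher were 4 of 6 hosts, beside 31.1% of genes called higher and 31.1% called lower, 4 hosts lay wholly above the controls (29.3% of genes), and 1 lay wholly below (53.8% of genes). The class's own 8 markers summed to 43109 and 43222 CPM in the Lats2iECKO libraries against 55751 and 56174 CPM in the controls and the 6 fibroblast markers to 55.3 and 55.8 against 24.2 and 26.2 CPM, with no marker at 0, and Malat1 was higher (0.50 ± 0.047, adjusted p = 1.62e-06 by edgeR); their part in the host values was not tested.

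SMC-like cells, the smooth muscle and mural cells, split the hosts. Gas5 was at 265 and 282 CPM in the Lats2iECKO libraries against 212 and 169 CPM in the controls, a log2 fold change of 0.55 ± 0.10. Snhg8 overlapped and was not higher, at 98.3 and 92.6 against 106 and 95.02 CPM and -0.051 ± 0.095 on the log2 scale, a value that changed sign under 2 of 17 alternative settings. Snhg6 overlapped as well, with 35.2 and 38.5 against 35.9 and 22.2 CPM, the second control library alone being low, and its log2 fold change was 0.063 without control replicate 2 and 0.759 without control replicate 1. Snhg1, Snhg5 and Snhg12 lay between 0.29 and 0.69 on the log2 scale without overlap, Snhg1 with 0.201 and Snhg12 with 0.384 without control replicate 2, and Snhg12 with 0.197 without Lats2iECKO replicate 2. The groups of Snhg12 all but touched, at 30.54 and 35.75 against 27.06 and 30.53 CPM. Snhg5 and Snhg12 lay below the expression filter in this class. Gas5 was the 1 host called higher of the 4 that passed the filter, beside 23.5% of genes called higher and 23.6% called lower, and 4 hosts were higher without overlap, beside 35.3% of genes. The median was 0.35. The summed level of the 6 SMC markers was 9557 and 9422 CPM in the Lats2iECKO libraries against 18812 and 19385 CPM in the controls, so the cells of this class differed between the genotypes in the genes that define it, and the part of that in the host values was not tested. In the same cells the 7 leukocyte markers summed to 127 and 116 against 17.7 and 25.1 CPM and the 6 BMSC markers to 643 and 742 against 1639 and 2408 CPM. The 7 OB markers summed to 164 and 146 against 456 and 465 CPM, and no marker of these lists was at 0. Neat1 was higher (0.44 ± 0.095, adjusted p = 0.00276 by edgeR) and Malat1 lower (-0.18 ± 0.058, adjusted p = 0.0274). The part of these differences in the host values was not tested either.

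Fibroblast-like cells were led by Angptl7, Slurp1, Igfbp6 and Clec3b, but the summed level of the 8 CHO markers in them (4635 and 4796 CPM in the Lats2iECKO libraries, 3286 and 3388 CPM in the controls) exceeded that of their own 6 markers (2475 to 2599 CPM). CHO-like cells hold more Gas5 and Snhg8 than this class, and the part of the CHO markers in the values below was not tested. The 7 OB markers summed to 134 and 135.5 CPM in the Lats2iECKO libraries against 414 and 359.5 CPM in the controls, and their part was not tested either. Gas5 was at 417 and 436 CPM in the Lats2iECKO libraries against 301 and 340.1 CPM in the controls, with a log2 fold change of 0.47 ± 0.078. Snhg8 was at 94.8 and 99.7 against 70.9 and 71.9 CPM (0.50 ± 0.078), with a narrow spread in either genotype. Snhg5 gave 23.9 and 27.2 against 21.1 and 13.5 CPM, its controls far apart. All 6 hosts were higher in both Lats2iECKO libraries, beside 20.7% of genes, and Gas5 and Snhg8, 2 of the 5 that passed the filter, were called higher, beside 6.37% of genes called higher and 5.3% called lower. The median was 0.43.

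**Figure D2:**
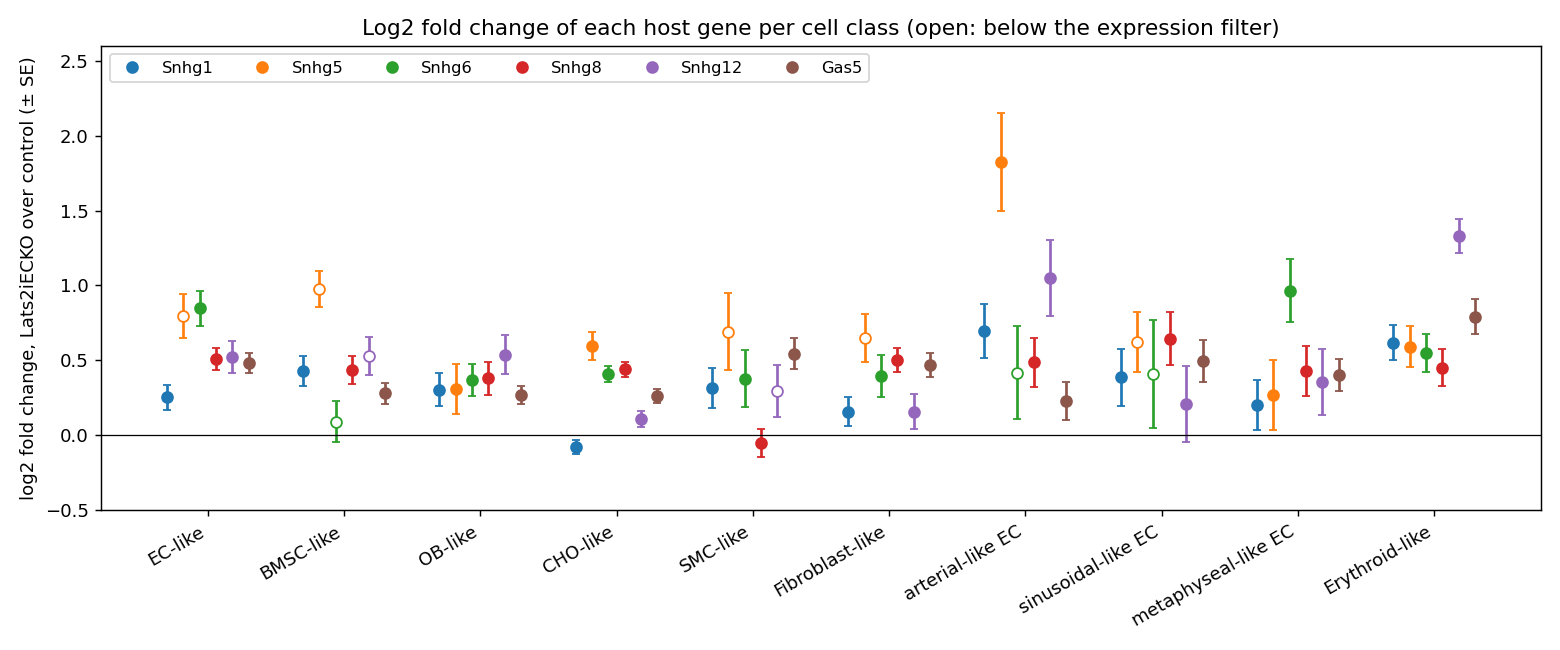
Log2 fold change of each host gene, Lats2iECKO over control, by cell class; points are edgeR estimates, bars are standard errors (2 libraries against 2), and open points lie below the expression filter. Most points lie above 0, from 0.25 to 0.85 in EC-like cells, while Snhg1 in CHO-like cells (-0.081) and Snhg8 in SMC-like cells (-0.051) lie below.

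Blood cells that escaped the depletion gave a comparison outside the stroma. In erythroid-like cells (282 and 296 Lats2iECKO barcodes, 572 and 510 control barcodes) Snhg12 stood at 136 and 148 CPM against 69.3 and 68.7 CPM, a log2 fold change of 1.33 ± 0.12, the largest of this gene in any class. Gas5 was at 1079 and 1035 against 759.9 and 731 CPM (0.79 ± 0.12), and Snhg1 at 236 and 242 against 193 and 188 CPM (0.62 ± 0.12). The remaining 3 hosts were between 0.45 and 0.59. With every cell counted equally, which also leaves out TMM, Snhg1 was at 0.300, Snhg6 at 0.134, Snhg8 at 0.121 and Gas5 at 0.457. Without TMM Snhg5 was at 0.308. All 6 were called higher and lay wholly above the controls, beside 14.7% of genes called higher, 10.2% called lower and 12.3% wholly above. With no gene filter edgeR called 0 of the 6. TMM scaling weighs on these values, since on library totals alone the median of all genes moved by -0.28 relative to them. Malat1, a nuclear RNA that rises with the nuclear share of a library, was at 12749 and 14018 against 7035 and 5938 CPM in these cells, and median depth was 4479.5 and 4439 UMIs against 6466.5 and 6191.5 UMIs. Barcodes above the limit of 5% hemoglobin UMIs, which were dropped before the classes were set, numbered 181 and 190 in the Lats2iECKO libraries and 69 and 65 in the controls. The part of these differences in the erythroid-like values was not tested. In leukocyte-like cells (66 and 83 against 199 and 175 barcodes), which were led by the basophil and granulocyte genes Prss34, Mcpt8 and Ctsg, Gas5 was at 712 and 946 against 599.8 and 649 CPM with an SE of the log2 fold change of 0.19. Of the 5 hosts that passed the filter edgeR called 0 (0 at an unadjusted p under 0.05, DESeq2 not run), beside 1.53% of genes called higher. Snhg6 was high in 1 Lats2iECKO library only, at 46.5 and 96.1 against 46.2 and 53.7 CPM, and the groups of Snhg1, Snhg5 and Snhg12 overlapped too.

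Levels also differed between cell classes, a contrast that the choice of members did not use. In the control libraries Gas5 was highest in CHO-like cells at 856 ± 4.72 CPM (mean ± SD, n = 2), followed by erythroid-like (746 ± 20.1), leukocyte-like (625 ± 35.1), fibroblast-like (320.4 ± 27.8) and OB-like cells (292 ± 3.96). BMSC-like (214 ± 2.80), EC-like (208 ± 8.13) and SMC-like cells (191 ± 30.7) came last and overlapped. Snhg6 ran in a like order at the top, with 80.7 ± 7.09 CPM in CHO-like and 74.4 ± 3.72 CPM in erythroid-like cells, which overlapped, down to 21.1 ± 1.52 CPM in EC-like and 20.6 ± 0.417 CPM in BMSC-like cells, which overlapped too. Erythroid-like cells were highest for the other 4 hosts. Snhg8 fell from 255 ± 5.49 CPM there through 153 ± 0.780 in CHO-like and 63.6 ± 1.61 in EC-like cells to 42.3 ± 1.37 CPM in OB-like cells. Snhg1 fell from 190.3 ± 4.08 CPM to 37.7 ± 2.08 CPM in BMSC-like cells, and Snhg12 from 69.01 ± 0.382 CPM to 20.6 ± 0.567 CPM in OB-like cells. Snhg5 was highest in erythroid-like cells (56.05 ± 2.90 CPM) and lay between 11.3 and 17.5 CPM in the other 7 classes, where neighbours from OB-like to leukocyte-like overlapped and both SMC-like values lay below those of the next class. This order is in CPM, without TMM, and the last place of OB-like cells for Snhg8 and Snhg12 depends on that. With TMM, against the mean of the other stromal classes, Snhg12 was at -0.000 in OB-like cells. Snhg8 was at -0.306 there and at -1.126 in BMSC-like cells.

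Each of the 6 stromal classes was tested against the mean of the other 5 over all 4 libraries, with the library as a block (edgeR's quasi-likelihood test, 16338 genes, Benjamini-Hochberg adjustment). CHO-like cells held more RNA of 5 hosts, with log2 differences of 1.93 ± 0.066 for Gas5 (adjusted p = 2.12e-15), 1.75 ± 0.085 for Snhg6 (3.37e-13), 1.53 ± 0.063 for Snhg8 (3.02e-14), 1.00 ± 0.067 for Snhg12 (5.47e-11) and 0.87 ± 0.063 for Snhg1 (1.79e-10). Snhg5 did not pass in CHO-like cells (0.14 ± 0.10, adjusted p = 0.229), while it was lower in SMC-like (-0.83 ± 0.14, adjusted p = 3.84e-05) and higher in OB-like cells (0.62 ± 0.11, adjusted p = 7.42e-05). Of all genes tested, 35.3% were called higher in CHO-like cells and 32.8% lower. BMSC-like cells lay at the other end, with 5 hosts lower, Snhg6 by -1.24 ± 0.11 (adjusted p = 6.83e-09) and Snhg8 by -1.13 ± 0.079 (adjusted p = 1.17e-10), beside 33.2% of genes called higher and 31.4% lower. EC-like cells had 4 hosts lower, led by Gas5 at -0.87 ± 0.081 (adjusted p = 7.1e-09), beside 33.7% of genes higher and 34.3% lower. SMC-like cells had 5 lower, led by Gas5 at -0.86 ± 0.081 (adjusted p = 2.66e-08), beside 22.8% higher and 22.7% lower. OB-like cells had 4 higher, Snhg6 at 0.81 ± 0.099 (adjusted p = 6.9e-07), and Snhg8 lower, beside 26% higher and 30.1% lower. In fibroblast-like cells Gas5 (0.29 ± 0.074) and Snhg8 (0.19 ± 0.071) were higher, beside 28% higher and 26.8% lower.

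Scaling turned some of these directions. Without TMM 9 of the 36 log2 differences changed sign, 3 of them among the 26 called (Snhg12 in EC-like and Snhg1 and Gas5 in OB-like cells). The median of all genes moved without TMM by 0.30 in EC-like, 0.36 in BMSC-like, -0.58 in OB-like, -0.19 in CHO-like, 0.21 in SMC-like and -0.10 in fibroblast-like cells. The counts of hosts higher and lower then became 0 and 2 in EC-like, 1 and 4 in BMSC-like, 1 and 2 in OB-like, 5 and 0 in CHO-like, 1 and 3 in SMC-like and 1 and 1 in fibroblast-like cells. The 5 hosts higher in CHO-like cells were called under both scalings, Gas5 at 1.74 on library totals, while Snhg1 and Gas5 in OB-like cells turned from higher to -0.037 and -0.076. Snhg5 and Snhg6 in OB-like cells kept their sign but went from 0.62 and 0.81 to 0.041 and 0.231. Snhg12 in OB-like cells went from -0.000 to -0.578. Cytosolic ribosomal proteins, a list that none of the 6 belongs to, were with TMM higher in CHO-like cells for 84 of 86 members tested (median 1.04) and in OB-like cells for 85 (0.65), and lower in BMSC-like cells for 84 (-1.12), in SMC-like cells for 80 (-0.45) and in EC-like cells for 47 (-0.19). Their values on library totals are not given here. The shift of all genes without TMM was larger in size than their median in EC-like cells and close to it in OB-like cells. In CHO-like, BMSC-like and SMC-like cells that shift was smaller than their median.

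**Figure D3:**
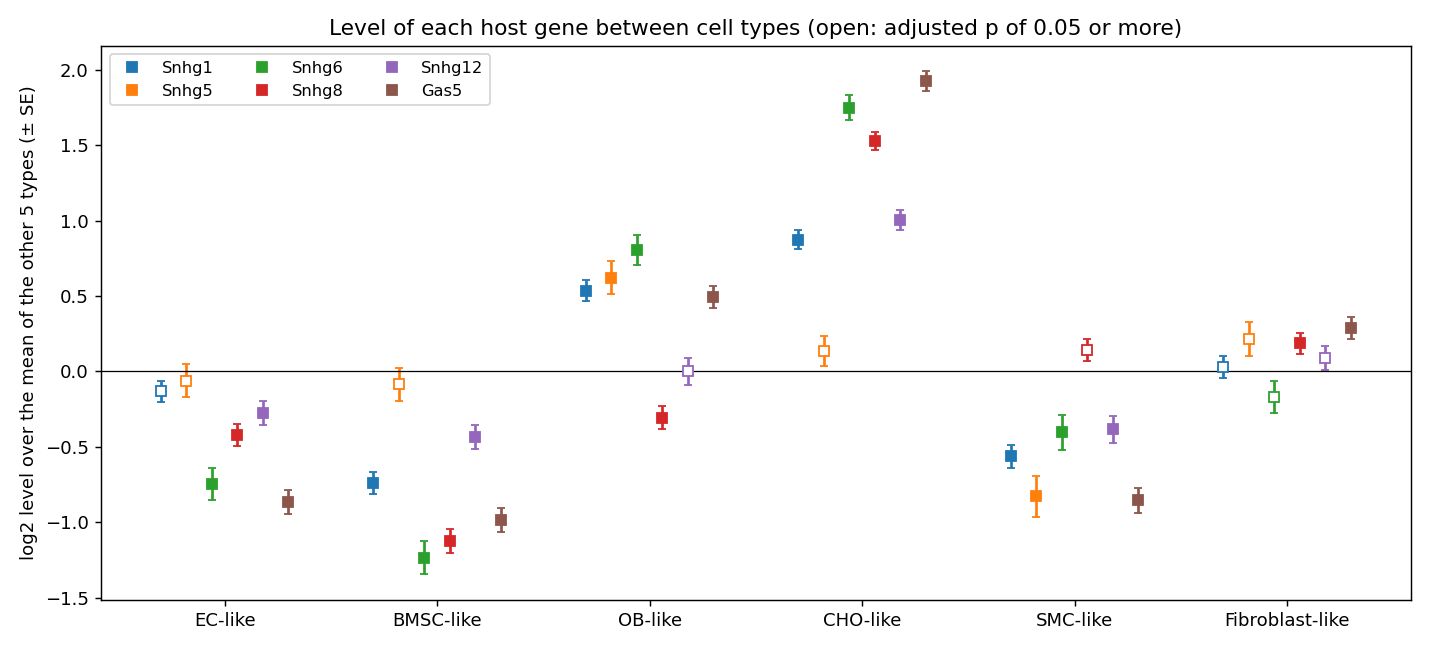
Log2 level of each host gene in 1 stromal class over the mean of the other 5 classes; squares are edgeR estimates with TMM scaling over 4 libraries, bars are standard errors, and open squares have an adjusted p of 0.05 or more. Gas5 (1.93) and Snhg6 (1.75) stand highest, in CHO-like cells, and Snhg6 in BMSC-like cells lowest (-1.24); outside CHO-like cells several directions turn when library totals replace TMM, for example Gas5 in OB-like cells (-0.076).

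Over the 24 sums of 6 stromal classes in 4 libraries, the hosts varied together except for Snhg5. Pearson correlations of log2 CPM between pairs ran from 0.63 to 0.91 among Snhg1, Snhg6, Snhg8, Snhg12 and Gas5, with Snhg6 and Gas5 the closest pair, and from -0.031 to 0.34 between Snhg5 and the others. Among 3538 genes with a mean of at least 50 CPM, the 10 most like the mean of the 6 hosts were Npm1 (r = 0.95), Rpl9 (0.92), Col10a1 (0.92), Rpl12 (0.91), Rps24 (0.91), Gm11478 (0.91), Ptp4a1 (0.91), Rpl19 (0.91), Chka (0.90) and Tomm20 (0.90). Npm1 is a nucleolar histone chaperone used in ribosome assembly, 4 of the 10 encode ribosomal proteins, and Col10a1 is the collagen of hypertrophic chondrocytes and a marker that gated CHO-like cells. The sums share libraries and classes, so these coefficients are a description.

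Beyond the 6, the files held 13 other noncoding hosts and 5 tissue-restricted or imprinted ones, few of which passed the expression filter. Zfas1, the host of Snord12 genes, and Snhg3, the host of the Snora73 genes, were tested in each class. Zfas1 rose in EC-like cells, from 57.4 and 51.3 CPM to 68.1 and 66.4 CPM (0.38 ± 0.084 on the log2 scale, adjusted p = 0.000943 by edgeR), in BMSC-like (0.91 ± 0.11, adjusted p = 3.05e-07), CHO-like (0.47 ± 0.050, adjusted p = 5.01e-06), SMC-like (0.81 ± 0.17, adjusted p = 0.00248) and fibroblast-like cells (0.44 ± 0.099, adjusted p = 0.0181). The call in fibroblast-like cells was lost without Lats2iECKO replicate 2 and by DESeq2 (0 other noncoding hosts called in each). Snhg3 rose in EC-like (22.9 and 28.7 to 40.2 and 43.3 CPM, 0.77 ± 0.12, adjusted p = 3.23e-05), BMSC-like (0.55 ± 0.12, adjusted p = 0.000696) and CHO-like cells (0.16 ± 0.058, adjusted p = 0.0302), and it was at -0.11 ± 0.14 in SMC-like cells (adjusted p = 0.558). The call of Snhg3 in CHO-like cells was lost when any 1 library was left out (0.137 to 0.182), by DESeq2, with no gene filter and without TMM. In BMSC-like cells Snhg3 lay below the filter, and was not tested, without the 5% of barcodes with most UMIs and on whole-number entries only. Not every host moved that way. Snhg18 fell in CHO-like cells from 197 and 197 to 134 and 144 CPM (-0.41 ± 0.048, adjusted p = 1.2e-05) and in SMC-like cells (-0.26 ± 0.094, adjusted p = 0.0427), a call that was lost without Lats2iECKO replicate 2 or either control library. Snhg4 fell in CHO-like cells (-0.19 ± 0.063, adjusted p = 0.0224), where Epb41l4aos rose (0.22 ± 0.073, adjusted p = 0.0209). Both calls were lost without Lats2iECKO replicate 2 (-0.132 and 0.149), by DESeq2 and with no gene filter, that of Snhg4 also without control replicate 2 (-0.127), and that of Epb41l4aos also without control replicate 1 (0.157) and without TMM. Meg3, an imprinted host, rose in fibroblast-like cells from 366 and 392.3 to 519 and 545 CPM (0.55 ± 0.071, adjusted p = 0.000775). In OB-like cells edgeR called none of 3 other noncoding hosts (1 at an unadjusted p under 0.05, and 0 by DESeq2). Snhg4 rose in leukocyte-like cells, from 39.2 and 43.9 to 71.7 and 81.01 CPM (0.87 ± 0.22, adjusted p = 0.0356), a call that was lost without Lats2iECKO replicate 2 (0.782), without control replicate 1 (0.821) and with no gene filter. All 7 tested in erythroid-like cells were called higher, beside 14.7% of genes, from 0.83 for Zfas1 to 1.25 for Snhg20, and 0 of them with no gene filter. In the EC subclasses Zfas1 rose in arterial-like ECs (0.86 ± 0.18, adjusted p = 0.00268) and Snhg3 in metaphyseal-like ECs (0.88 ± 0.22, adjusted p = 0.00312). DESeq2 called neither, and the call in arterial-like ECs was lost without control replicate 2 (0.722).

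Many snoRNAs sit in protein-coding genes, ribosomal protein genes among them. Over all genes tested, edgeR called 31% higher and 31.1% lower in EC-like, 19.9% and 18.2% in BMSC-like, 7.29% and 3.68% in OB-like, 31.1% and 31.1% in CHO-like, 23.5% and 23.6% in SMC-like and 6.37% and 5.3% in fibroblast-like cells, shares against which the counts of each list below are read. Cytosolic ribosomal proteins rose in EC-like cells for 84 of 85 members tested (median log2 fold change 0.50), among them Rplp0 (0.69 ± 0.058) of the ribosomal stalk. They rose for 84 of 86 in CHO-like (0.44, beside 31.1% of genes), 73 of 85 in SMC-like (0.41, 23.5%), 68 of 85 in BMSC-like (0.21, 19.9%), 40 of 85 in fibroblast-like (0.22, 6.37%) and 37 of 86 in OB-like cells (0.19, 7.29%). None was called lower in these 6 classes by edgeR, at the adjusted or the unadjusted threshold, or by DESeq2. The 31 ribosomal protein genes that host a snoRNA and the 54 tested that host none had medians of 0.502 and 0.503 in EC-like cells, and in CHO-like cells the medians were 0.415 for 31 and 0.463 for 55. Of protein-coding hosts that encode no ribosomal protein, 33 of 135 were called higher and 59 lower in EC-like cells (median -0.16), and 39 of 157 higher and 66 lower in CHO-like cells (median -0.11). Odc1, which makes polyamines, rose by 1.25 ± 0.072 in EC-like cells, and Nbea fell (-1.05 ± 0.063). In SMC-like cells 16 of 124 were higher and 35 lower, in fibroblast-like 3 of 134 and 9, in BMSC-like 17 of 124 and 20, and in OB-like cells 10 of 153 and 3.

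A further list joined proteins of the snoRNA particle with the nucleolar proteins Npm1, Ncl and Nolc1. Of these, 8 of 10 were called higher in EC-like cells (median 0.38, beside 31% of genes), and 5 by DESeq2. Nhp2 of the H/ACA particle was at 0.86 ± 0.10, Npm1 at 0.64 ± 0.064 and Nop58 of the C/D particle at 0.43 ± 0.082. In CHO-like cells 4 of 11 were higher, among them Npm1 (0.42 ± 0.045). Another 4 were lower there, among them Nhp2 (-0.31 ± 0.062), Gar1 and Dkc1 of the H/ACA particle. Both counts were near the 31.1% of genes called in either direction there. In BMSC-like cells 3 of 5 were higher, in OB-like 2 of 11 (Ncl and Npm1), in SMC-like 2 of 6 with 1 lower and in fibroblast-like cells 1 of 11 (Npm1). DESeq2 called 3 higher and 2 lower in CHO-like cells. It called 2 higher in BMSC-like, 1 in OB-like, 1 in SMC-like and 0 in fibroblast-like cells, and 0 lower in these 4 classes. Factors of nonsense-mediated decay, which degrades spliced host RNA, stood near the share of all genes in EC-like cells. There 3 of 11 rose and 4 fell (median -0.023, beside 31% and 31.1% of genes), with Magoh at 0.39 ± 0.084 and Smg6, the endonuclease of the pathway, at -0.42 ± 0.084. CHO-like cells had 1 of 12 higher and 5 lower (beside 31.1% and 31.1% of genes), and BMSC-like 1 of 8 and 2 (19.9% and 18.2%). SMC-like cells had 0 of 10 higher (0 at an unadjusted p under 0.05 and 0 by DESeq2) and 2 lower, beside 23.5% and 23.6% of genes. In OB-like and fibroblast-like cells edgeR called 0 of 12 and 0 of 11 (1 higher in OB-like, 1 higher and 4 lower in fibroblast-like cells at an unadjusted p under 0.05, and 0 by DESeq2 in both).

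Genes of growth arrest and the integrated stress response, the setting in which Gas5 was named, were called higher in numbers that differed by class. In EC-like cells 7 of 7 tested were called higher (median 0.86, beside 31% of genes): Atf3, a stress-induced transcription factor, went from 77.3 and 69.2 to 190.2 and 195 CPM (1.47 ± 0.083, adjusted p = 1.68e-10), Gadd45b from 63.6 and 62.5 to 172 and 151 CPM (1.43 ± 0.082), and Cdkn1a, an inhibitor of cyclin-dependent kinases, from 124 and 152 to 249.8 and 247 CPM (0.93 ± 0.087). The same list had 6 of 6 higher in BMSC-like (median 1.11, beside 19.9% of genes), 9 of 9 in CHO-like (1.02, 31.1%), 7 of 8 in SMC-like (0.59, 23.5%), 4 of 8 in OB-like (0.62, 7.29%) and 2 of 9 in fibroblast-like cells (0.20, 6.37%). DESeq2 called 4 of 8 in SMC-like and 1 of 9 in fibroblast-like cells. Stress genes high in Lats2iECKO cells only could pass the expression filter through those cells. Their counts among the genes tested are therefore a description. Several of these genes, Atf3 among them, are also known to be induced while tissue is digested, and the part of that in the host values was not tested. In erythroid-like cells, where the median of the 6 hosts was 0.60, 2 of 5 stress genes were higher and Asns, which makes asparagine, was lower (-0.40 ± 0.13, adjusted p = 0.027 by edgeR), and 30 of 84 ribosomal proteins were higher and 2 lower, beside 14.7% of genes higher and 10.2% lower, with a median of 0.18 that is smaller in size than the -0.28 by which library totals alone moved all genes there.

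**Figure D4:**
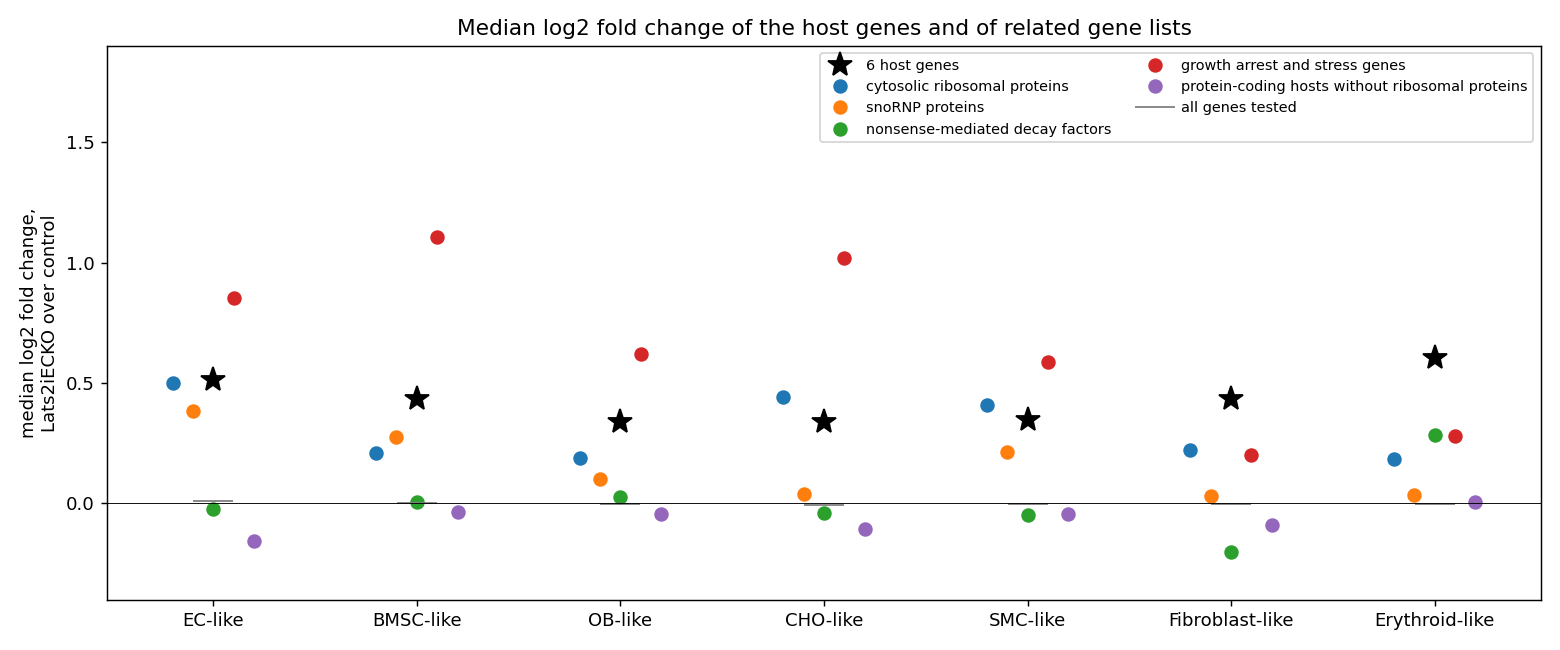
Median log2 fold change, Lats2iECKO over control, of the 6 host genes (stars) and of 5 related gene lists (points) by cell class, with the median of all genes tested as a grey dash. In EC-like cells the hosts (0.51) stand beside the ribosomal proteins (0.50), below the stress genes (0.86) and above the protein-coding hosts without ribosomal proteins (-0.16).

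RNA outside cells held the hosts too. In droplets with at most 100 UMIs, taken as empty, Gas5 was at 712 and 741 CPM in the Lats2iECKO libraries and 526 and 543 CPM in the controls, above its level in EC-like cells in all 4 libraries. Snhg6 (65.7 and 71.5 against 38.4 and 50.4 CPM), Snhg8 (151 and 151 against 97.2 and 101) and Snhg12 (56.3 and 59.5 against 42.9 and 37.6) were also higher in Lats2iECKO empty droplets. Snhg1 overlapped (100.2 and 107 against 108 and 106 CPM), and Snhg5 was lower in Lats2iECKO empty droplets (23.8 and 27.1 against 29.96 and 34.8 CPM) although higher in Lats2iECKO EC-like cells. From markers of the other classes, free RNA was estimated to make up 7.59% and 5.63% of the UMIs of EC-like cells in the Lats2iECKO libraries and 3.77% and 6.34% in the controls. That amount would give between 9.81% and 19.9% of their Gas5 level. In SMC-like cells free RNA would give 22.3% and 22.7% of the Gas5 level in the Lats2iECKO libraries and 28.5% and 44.4% in the controls, and up to 47.6% of that of Snhg5; subtracting it moved the log2 fold change of Snhg1 there from 0.315 to 0.581 and that of Snhg5 from 0.691 to 1.082. With free RNA subtracted, the median log2 fold change of the 6 hosts in EC-like cells was 0.48, beside 0.51 without.

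**Figure D5:**
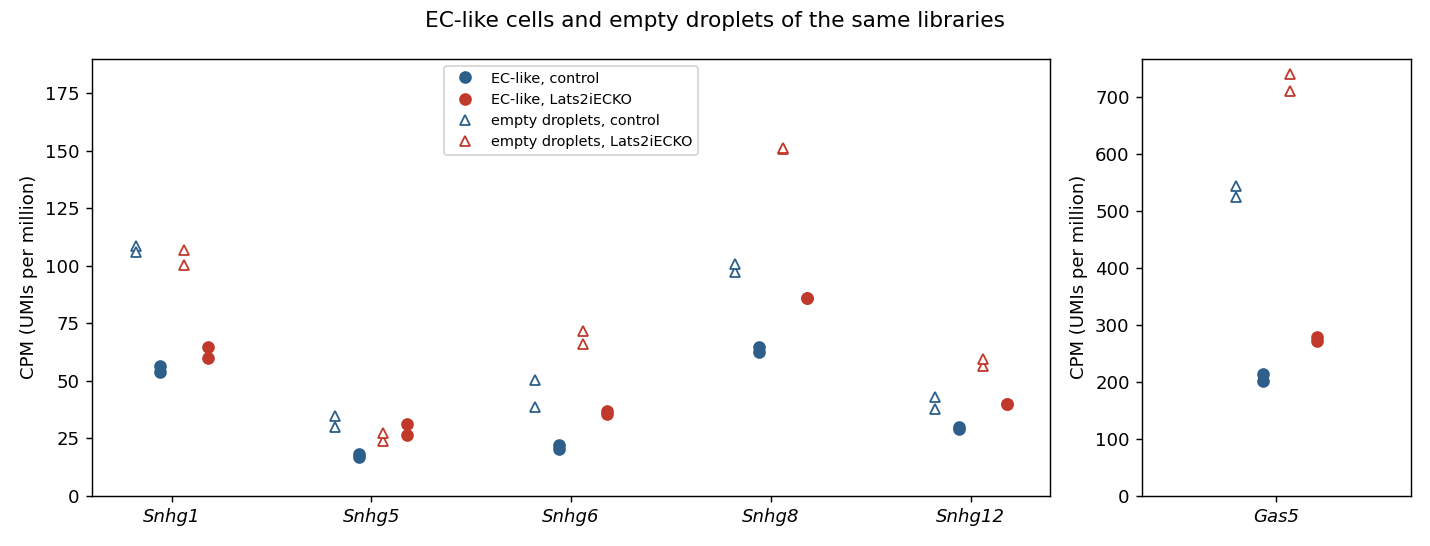
Level of the host genes in CPM in EC-like cells (filled circles) and in empty droplets of the same libraries (open triangles), control in blue and Lats2iECKO in red, with Gas5 on an axis of its own; both axes are linear from 0. Gas5 lies at 712 and 741 CPM in Lats2iECKO empty droplets against 272 and 279 CPM in EC-like cells, and Snhg5 is the host whose red triangles (23.8 and 27.1 CPM) lie below the blue ones (29.96 and 34.8 CPM).

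Other measures moved with genotype in EC-like cells. Barcodes with at least 2 UMIs of cycling markers were 5.84% and 4.78% of the Lats2iECKO libraries and 2.6% and 2.41% of the controls, and without them the median of the 6 hosts was 0.56. Malat1 did not pass the test there (17109 and 17540 against 17549 and 16979 CPM, adjusted p = 0.417 by edgeR), while Neat1, the nuclear RNA of paraspeckles, rose from 199.7 and 213 to 334 and 379 CPM (adjusted p = 2.49e-08). The summed level of the 7 OB markers in EC-like cells was 120 and 89.3 CPM in the Lats2iECKO libraries against 447 and 563 CPM in the controls, that of the 7 leukocyte markers 47.1 and 49.9 against 141 and 150 CPM, and that of the 8 CHO markers 961 and 464 against 424 and 632 CPM, with no marker of these lists at 0. Their part in the host values was not tested.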

How the data were processed

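Droplet 3′ libraries (10x Chromium, V3) of 2 Lats2iECKO and 2 control samples were analyzed. The authors trimmed reads with cutadapt 3.5, aligned them to mm39 (GRCm39) with GENCODE M26 annotation plus transgene sequences and counted UMIs in exons and introns on the sense strand with STARsolo 2.7.10a. The deposited values are estimated counts (STARsolo's expectation maximization divides a UMI among the genes its reads fit), one column per barcode with none filtered out. These matrices precede the doublet removal of the study. Read depth gave between 69636600 and 85899079 UMIs per library.

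Barcodes with at least 1000 UMIs, 800 genes and a complexity (log10 genes over log10 UMIs) of 0.8, at most 15% mitochondrial and 5% hemoglobin UMIs were kept, as in the study's methods. Marker expression was standardized and averaged per list, and a barcode took the class of its best score where this was at least 0.5 and exceeded the next by 0.25 (0.25 and 0.25 within EC-like cells), so the classes are rebuilt and not the study's own. Barcodes within 0.1 of these cuts numbered 55 for EC-like, 306 for BMSC-like, 245 for OB-like, 850 for CHO-like, 304 for SMC-like, 605 for fibroblast-like, 95 for leukocyte-like and 147 for erythroid-like cells. No doublet caller was run. The margin between scores removes only barcodes whose best score leads the next by less than 0.25. Barcodes with markers of a second class, doublets among them, can therefore remain. Dropping the 5% of barcodes with most UMIs was an alternative. UMIs were summed per library and class, rounded and tested with edgeR 4.0.16 (TMM, glmQLFit, glmQLFTest, R 4.3.3) on genes that passed filterByExpr and had a count in 20% of the cells of either genotype, with Benjamini-Hochberg adjustment over all genes tested in a class. The library was the replicate. A gene high in 1 genotype could pass the filter through that genotype alone, so counts called within a list are a description. With 2 libraries against 2, an exact permutation test of a single value cannot go below p = 0.333, so tests rest on the spread that edgeR shares across genes. The edgeR fit was also run on counts simulated from the EC-like sums with known fold changes, as a check of the code, and no result rests on it. DESeq2 1.42.0, the tool the study used, was an alternative. Free RNA was taken from droplets with at most 100 UMIs. No column belonged to a sample outside the series.

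The members, markers and lists were chosen with earlier results of these data known. Besides the 6 hosts, Lats2 and the transgene, named genes were other noncoding hosts when called and at most the 3 called genes with the largest log2 fold change per list, class and direction, Malat1 and Neat1 for RNA quality, and the 10 genes most like the members. Slc3a2, Sgk3, Mcmdc2, Zbtb37 and Gm67903 are named as overlapping genes, Prss34, Mcpt8, Ctsg, Angptl7, Chga, Angpt2 and Esm1 as genes that lead a class. Genes with no RefSeq promoter entry under their symbol are named only. Items withheld for evaluation are not reported here.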

Additional observations from a re-analysis of the deposited data

Results flagged for a closer look

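Snhg1 differed in direction between CHO-like cells and the other stromal classes. Its log2 fold change in CHO-like cells was -0.081 ± 0.046 and not called by edgeR. Both Lats2iECKO libraries (73.4 and 74.2 CPM) lay below both controls (83.7 and 83.6 CPM), as for 53.8% of the genes tested there. In EC-like, BMSC-like, OB-like, SMC-like and fibroblast-like cells both Lats2iECKO libraries were above both controls, beside 34.7%, 29.8%, 25.6%, 35.3% and 20.7% of genes. The difference between the classes was not tested.

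Barcodes that fell into no class, 22.5% and 23.5% of the Lats2iECKO and 9.07% and 9.85% of the control libraries, entered no comparison, and all 6 hosts were higher in those of the Lats2iECKO libraries. The share of all genes that were higher there was not computed, so nothing particular to the hosts is read from this. Mean CPM in the Lats2iECKO libraries was 99.36 for Snhg1 (controls 81.9 and 77.3), 33 for Snhg5 (controls 24.1 and 25.2), 98.86 for Snhg6 (controls 40.7 and 36.05), 163.1 for Snhg8 (controls 104 and 108), 84.89 for Snhg12 (controls 45.8 and 54.3) and 876.6 for Gas5 (controls 485 and 489). Which cells these barcodes hold was not examined.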

How the results depend on the processing

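Of 972 alternative values for the log2 fold changes of single hosts, 816 lay within 1 SD between replicates of the reported value and 156 moved further. The sign turned under at least 1 alternative for Snhg6 in BMSC-like cells (0.09, lowest -0.082), Snhg12 in CHO-like cells (0.11, lowest -0.006), Snhg8 in SMC-like cells (-0.051, highest 0.026), Snhg12 in sinusoidal-like ECs (0.21, lowest -0.061), and Snhg5 (0.11, lowest -0.211), Snhg6 (0.53, lowest -0.113) and Snhg12 (0.065, lowest -0.049) in leukocyte-like cells. Every median over the 6 hosts stayed above 0 in each class and alternative run. The members were chosen by their genotype values in these same libraries, so this is a description and no test of their direction. The cause of the shifts below was not tested.

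Medians over the 6 hosts moved as follows. Counting every cell equally also leaves out TMM, so that setting changes both the weight of cells and the scaling. In EC-like cells (0.51) they were 0.545 with at least 2000 UMIs and at most 10% mitochondrial UMIs, 0.553 without the 5% deepest barcodes, 0.558 without cycling barcodes, 0.478 with free RNA subtracted, 0.431 on library totals without TMM and 0.445 with every cell counted equally. In BMSC-like cells (0.43) they were 0.357 with no gene filter, 0.459 with the stricter barcode filter, 0.399 with a stricter gate (margin 2 times as large), 0.371 without the deepest barcodes, 0.474 with a looser gate, 0.460 without cycling barcodes, 0.404 with free RNA subtracted, 0.394 without TMM and 0.376 with cells counted equally. OB-like cells (0.34) gave 0.258 with no gene filter, 0.404 with the looser gate and 0.401 with cells counted equally, CHO-like cells (0.34) 0.236 without TMM and 0.183 with cells counted equally, and fibroblast-like cells (0.43) 0.367 without TMM. Arterial-like ECs (0.59) gave 0.623 without the deepest barcodes and 0.438 with cells counted equally, sinusoidal-like ECs (0.45) 0.621 and metaphyseal-like ECs (0.38) 0.479 without the deepest barcodes.

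Leaving out each library in turn gave medians of 0.511 to 0.531 in EC-like, 0.381 to 0.423 in BMSC-like, 0.289 to 0.439 in OB-like, 0.287 to 0.575 in SMC-like, 0.329 to 0.513 in fibroblast-like, 0.574 to 0.676 in arterial-like, 0.363 to 0.585 in sinusoidal-like and 0.302 to 0.470 in metaphyseal-like cells. The lone library of a genotype was then assumed to vary like the other pair. Hosts called higher ranged from 0 to 3 in OB-like (reported 4; 0 without either control), 1 to 2 in SMC-like (2 without control replicate 1), 1 to 4 in arterial-like (reported 4; 1 without control replicate 1, 2 without control replicate 2) and 0 to 0 in sinusoidal-like cells (reported 2). Other noncoding hosts called higher ranged from 0 to 1 in OB-like (1 without Lats2iECKO replicate 1), 1 to 2 in CHO-like (reported 3; 1 without Lats2iECKO replicate 2 or control replicate 1), 0 to 1 in fibroblast-like (0 without Lats2iECKO replicate 2) and 0 to 1 in arterial-like cells (0 without control replicate 2), and those called lower from 1 to 3 in CHO-like (reported 2; 1 without Lats2iECKO replicate 2 or control replicate 2) and 0 to 1 in SMC-like cells (reported 1; 0 without Lats2iECKO replicate 2 or either control).

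DESeq2 called 1 host higher in OB-like, 0 in arterial-like, 0 in sinusoidal-like and 1 in metaphyseal-like cells, and of the other noncoding hosts 1 higher and 1 lower in CHO-like, 0 lower in SMC-like, and 0 higher in fibroblast-like, arterial-like and metaphyseal-like cells. With no gene filter the hosts called higher were 0 in OB-like, 2 in SMC-like and 0 in sinusoidal-like cells, and of other noncoding hosts 6 were higher in EC-like, 2 in arterial-like and 3 in metaphyseal-like cells, 1 lower in CHO-like and 0 lower in SMC-like cells. Hosts called higher in SMC-like cells were also 2 with the stricter barcode filter, without the deepest barcodes, with the looser gate and with free RNA subtracted, and in OB-like cells 2 with the stricter gate and 0 with free RNA subtracted. Other noncoding hosts called higher in BMSC-like cells were 1 without the deepest barcodes and 1 on whole-number entries only, in fibroblast-like cells 2 with the looser gate and 0 with free RNA subtracted, and in CHO-like cells 1 without TMM, where 1 of the 6 hosts was called lower. With the stricter barcode filter 0 were called lower in SMC-like cells. In erythroid-like cells the fit with no gene filter called 0 of the 6 hosts (reported 6) and 0 of the other noncoding hosts (reported 7).

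Shared replicate numbers do not mark paired animals in the sources used here: the correlation of deviations of same-numbered libraries ran from -0.13 to 0.12 over the classes. With the replicate number as a block, 2 hosts were called higher in OB-like cells and 1 other noncoding host in sinusoidal-like cells, and no other count of called hosts moved by more than 1.5 times. Crossing the numbers in erythroid-like cells, where the correlation was -0.13, left 6 hosts and 7 other noncoding hosts called higher.

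Between classes, library totals without TMM gave 2 hosts lower in EC-like, 1 higher in BMSC-like, 1 higher and 2 lower in OB-like, 1 higher and 3 lower in SMC-like and 1 higher and 1 lower in fibroblast-like cells. They also turned the log2 difference of Snhg1 (0.163), Snhg5 (0.235) and Snhg12 (0.021) in EC-like, Snhg5 in BMSC-like (0.284) and CHO-like (-0.051), Snhg1 (-0.037) and Gas5 (-0.076) in OB-like and Snhg1 (-0.077) and Snhg12 (-0.015) in fibroblast-like cells. Control libraries alone and the stricter gate each gave 1 host higher in SMC-like and 1 in fibroblast-like cells. Leaving out a library gave 0 to 1 higher in SMC-like (1 without Lats2iECKO replicate 2) and 1 to 2 in fibroblast-like cells (1 without either Lats2iECKO library or control replicate 2), and turned Snhg5 in EC-like (-0.129 to 0.001) and BMSC-like cells (-0.184 to 0.027) and Snhg12 in OB-like cells (-0.024 to 0.033), which RLE size factors (0.010), the stricter gate (0.009) and the looser gate (0.001) also turned. The looser gate, the cycling, free RNA, TMM and crossed settings were chosen after seeing the data.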
